A study of Mus musculus with 18 samples.

Results

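The genes described here are 36 genes of the oligodendrocyte lineage and of myelin, followed in the brains of WT mice and of mice that lack Pcm1, a protein of the granules around the centrosome. The members were named as a list of symbols, and each was matched to its Ensembl identifier. All 36 were found among the 38561 genes counted, and all 36 were among the 17545 genes that had at least 10 counts in at least 1 library and were tested. The study sequenced mRNA from the frontal cortex, striatum and hippocampus of adult Pcm1-/- mice and WT littermates on the C57 Bl6J background. Both genotypes had 3 libraries per region, which makes 6 groups and 18 libraries, and animal names recorded with the files show that the same 6 animals gave all regions. The mutant allele is a gene-trap insertion brought in through embryonic stem cells and then backcrossed to C57BL/6J, for at least 3 generations per the study. It is constitutive, so neurons and all glia of a mutant carry it, and a change in oligodendrocyte genes cannot be assigned to loss of Pcm1 in any 1 cell type.

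Oligodendrocytes wrap axons of the central nervous system in myelin, a membrane stack rich in galactolipids that speeds conduction and feeds the axon. They arise from dividing precursor cells that carry Pdgfra and Cspg4 (NG2). Precursors that leave the cycle pass through a short premyelinating stage marked by Gpr17, and then, under Sox10, Olig1, Olig2, Nkx6-2 and Myrf, switch on the myelin genes. Precursors are spread evenly through grey and white matter, whereas myelin is densest in tracts such as the corpus callosum and in the fibre bundles that cross the striatum. The 36 members cover these steps with 13 genes of myelin structure, 4 enzymes of myelin lipids and their supply, 5 transcription factors, 2 receptors, 2 precursor markers and 10 further genes that are rich in oligodendrocytes.

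The libraries held between 24950537 and 33405081 counts on genes, of which the 36 members took 0.220% to 1.10%. Pcm1 read 120 to 149 CPM (counts scaled to a common library size with trimmed-mean factors) in the WT frontal cortex and 12.2 in all 3 mutant libraries of that region. Across the 18 libraries its counts were 3425 to 4919 in WT and 313 to 520 in mutant tissue, and every library fell on the side of its label. The summed markers of each region were highest in that region's libraries. Some libraries stood apart in the members. Leaving out Pdgfra, Cspg4 and Gpr17, replicate 2 of the Pcm1-/- striatum was the highest of its 3 libraries for 33 of 33 members, and replicate 2 of the hippocampus was the lowest of its 3 for 33 of 33 members in WT and again in Pcm1-/- animals. In 1 animal of each genotype all 3 libraries held 3064 to 4393 counts on Y-linked genes, against 67 to 112 in every library of the other animals, and those 3 replicates numbered 2 came from these animals. For the striatum, every WT library came from lane 5 and every Pcm1-/- library from lane 3 or 4, which means that in this region genotype cannot be told apart from lane. The results below are therefore given by library, by region, and once per animal as the mean over its 3 regions.

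The levels of the members covered a wide range. Per kilobase of exon, Mbp (myelin basic protein, which compacts the membrane) was the highest member in WT tissue, with 102 ± 23.2 CPM per kb (SD, n = 3) in the frontal cortex, 356 ± 128 in the hippocampus and 432 ± 7.77 in the striatum. Mobp, another basic protein of compact myelin, came next in the striatum with 205 ± 21.8 and in the hippocampus with 169 ± 75.8 CPM per kb. In the frontal cortex Car2, the carbonic anhydrase of glia, and Qdpr, a dihydropteridine reductase, followed Mbp with 64.1 ± 6.05 and 55.5 ± 4.33 CPM per kb, ahead of Mobp with 40.9 ± 10.5. The lowest members of the WT frontal cortex were Cspg4 with 1.47 ± 0.213 and Klk6, a secreted protease of mature oligodendrocytes, with 0.485 ± 0.0377 CPM per kb. Klk6 rested on only 19 to 21 counts per library there, and on 11 to 29 in the mutants. The spread between WT hippocampus libraries was wide enough that the order of Mobp, Apod, Cldn11, Mal and Plekhb1 in that region cannot be read from the means.

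The first comparison asked how the members differ between regions, and it was made once in the 3 WT animals and again in the 3 mutants, which are separate animals. Most genes of maturing and mature oligodendrocytes were over 2 times higher in the striatum and hippocampus than in the frontal cortex, and the precursor genes Pdgfra and Cspg4 were not. Mbp read 1088, 787 and 718 CPM in the WT frontal cortex, 3690, 3584 and 3704 in the WT striatum, and 4129, 1962 and 2951 in the WT hippocampus. The frontal cortex libraries lay below every library of the other regions, while striatum and hippocampus overlapped. In the edgeR quasi-likelihood test with Benjamini-Hochberg adjustment over all genes, 33 of 36 members were higher in the WT striatum than in the WT frontal cortex, against 24.2% of all genes tested, with a median log2 fold change of 1.80 beside 0.02 for all genes. In the WT hippocampus 33 of 36 were higher than in the frontal cortex (background 18.4%), with a median of 1.40. The members that did not pass in WT tissue were the same in both contrasts, namely Pdgfra, Cspg4 and Gpr17.

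The mutants gave 33 of 36 members higher in the striatum (background 25.0%) and 32 of 36 in the hippocampus (background 18.9%), with medians of 1.60 and 1.18 on the log2 scale. In both genotypes alike, 32 members were called higher in the striatum and 32 in the hippocampus than in the frontal cortex. Within the list the size of the regional difference was uneven. Klk6 had the largest one, with a log2 fold change of 4.53 ± 0.46 (SE) between striatum and frontal cortex in WT and 4.23 ± 0.47 in mutants. The structural myelin genes lay between 1.51 and 2.32 in WT, with Mobp at the top and Pllp, a tetraspan of compact myelin, at the bottom. Olig1 and Olig2, which are on from the precursor stage onward, rose by only 0.77 ± 0.11 and 0.59 ± 0.17. Gal3st1, the sulfotransferase that makes sulfatide, rose by 0.83 ± 0.15 in WT (adjusted p = 0.00021), and its value of 0.34 ± 0.15 in mutants did not pass (adjusted p = 0.07). Whether these values differ is part of the interaction test given further on, which called no member.

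Pdgfra, the receptor for the growth factor that keeps precursors dividing, differed little between regions. Its 9 WT libraries lay between 58.2 and 69.5 CPM and its 9 mutant libraries between 50.8 and 69.9. Its largest regional difference was 0.21 ± 0.08 on the log2 scale between striatum and frontal cortex in mutants, which passed (adjusted p = 0.032), and the same contrast in WT gave 0.06 ± 0.08. Cspg4 ranged from 12.3 to 20.1 CPM over the 18 libraries and Gpr17 from 27.6 to 53.5. With the animal as a block, which the shared animals call for, Gpr17 was lower in the WT hippocampus than in the frontal cortex by a log2 value of −0.31 (adjusted p = 0.0071), and in mutants Gpr17 and Cspg4 were higher in the striatum than in the frontal cortex by 0.29 and 0.26 (adjusted p = 0.0078 and 0.02).

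Few members were called between striatum and hippocampus, though 35 of 36 read higher in the striatum in both genotypes. In WT, 2 members were called higher in the striatum (background 17.7%), Cnp by 0.50 ± 0.18 and Klk6 by 1.16 ± 0.37 on the log2 scale. In mutants, 6 were called higher in the striatum (background 19.4%), namely Mag, Cnp, Hapln2, Nkx6-2, Gsn and Klk6. None was called lower. With the animal as a block the WT count was 4, with Hapln2, Cspg4, Gpr17 and Klk6 passing and Cnp not (background 20.6%). The WT count also turned on single libraries, since it was 0 without replicate 2 and 7 without replicate 1 of the WT hippocampus, and 1 without any 1 of the WT striatum libraries, while 14.9% to 17.6% of all genes were called higher when 1 library was left out. The mutant count was 1 without replicate 2 of the mutant striatum, 1 without replicate 2 and 11 without replicate 3 of the mutant hippocampus, beside 16.7% to 18.2% of all genes.

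**Figure D1:**
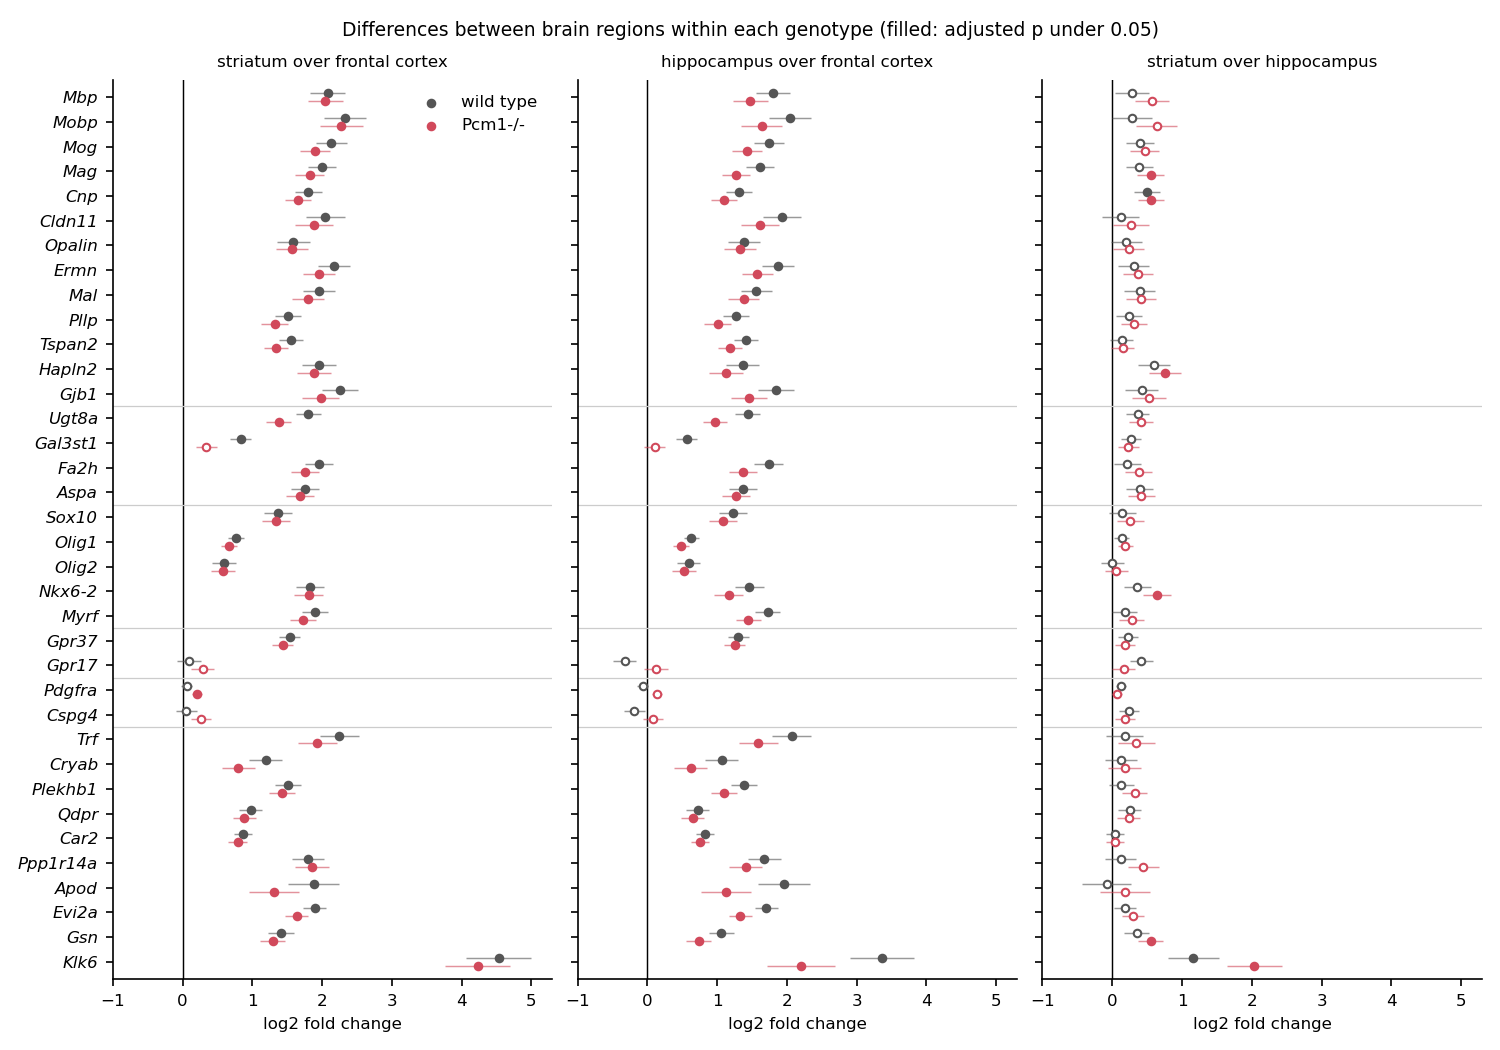
Log2 fold change between regions (horizontal axis) for each of the 36 members (vertical axis, grouped by role), in WT (grey) and Pcm1-/- (red) animals, with SE as bars and filled points at adjusted p under 0.05. Pdgfra, Cspg4 and Gpr17 lie near 0 in the left and middle panels, and Klk6 lies farthest right. The genotypes lie farthest apart for Klk6 in the middle panel, at 3.365 in WT and 2.196 in Pcm1-/- animals.

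The second comparison asked whether the members differ between Pcm1-/- and WT tissue. Nearly all of them read lower in the mutants in every region, by a modest amount, and few differences passed the test within a single region. In the frontal cortex 36 of 36 members had a negative log2 fold change, with a median of −0.30 beside −0.01 for all genes, and Olig1 was the only one called (background 0.336% of all genes called lower). In the striatum 35 of 36 were negative (median −0.41, all genes −0.0023), and for the hippocampus the count was 34 of 36 (median −0.56, all genes −0.0003). None was called in either of these regions by edgeR's quasi-likelihood test. That test called only 0.0057% of all genes lower in the striatum and 0.0057% in the hippocampus, 1 gene in each. In all, 34 members were lower in the mutants in all 3 regions, and the exceptions were Pdgfra and Gpr17.

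At an unadjusted p under 0.05, 18 members were lower in the frontal cortex (background 7.47%), 25 for the striatum (background 6.98%) and 20 for the hippocampus (background 5.06%), and none was higher. The 3 mutant libraries lay wholly below the 3 WT libraries for 12 members of the frontal cortex comparison (background 9.28%), 17 of the striatal one (background 9.39%) and 12 of the hippocampal one (background 6.46%). Other tools called more. DESeq2 called 8 members lower in the frontal cortex (background 1.64% of the genes to which it gave an adjusted p), 12 for the striatum (background 1.71%) and 3 for the hippocampus (background 0.791%), and edgeR's exact test called 4 (background 1.33%), 8 (background 0.598%) and 0 (background 0.416%). With this division by Y-linked counts as a covariate, the quasi-likelihood test called 13 members lower in the striatum (background 1.37%) and 0 in each of the other regions. The list was not chosen independently of these data, so its counts beside the background are a description. The mitochondrial share of counts was also lower in the mutant frontal cortex, at 3.20% to 3.56% against 4.05% to 5.66% in WT. It was 4.86% to 6.46% against 5.81% to 7.19% in the striatum, and 3.15% to 5.68% against 3.65% to 7.55% in the hippocampus, where the groups overlapped as they did in the striatum. Its part in the member values was not tested. These libraries are bulk tissue, in which fewer oligodendrocytes and less RNA of these genes per oligodendrocyte cannot be told apart.

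**Figure D2:**
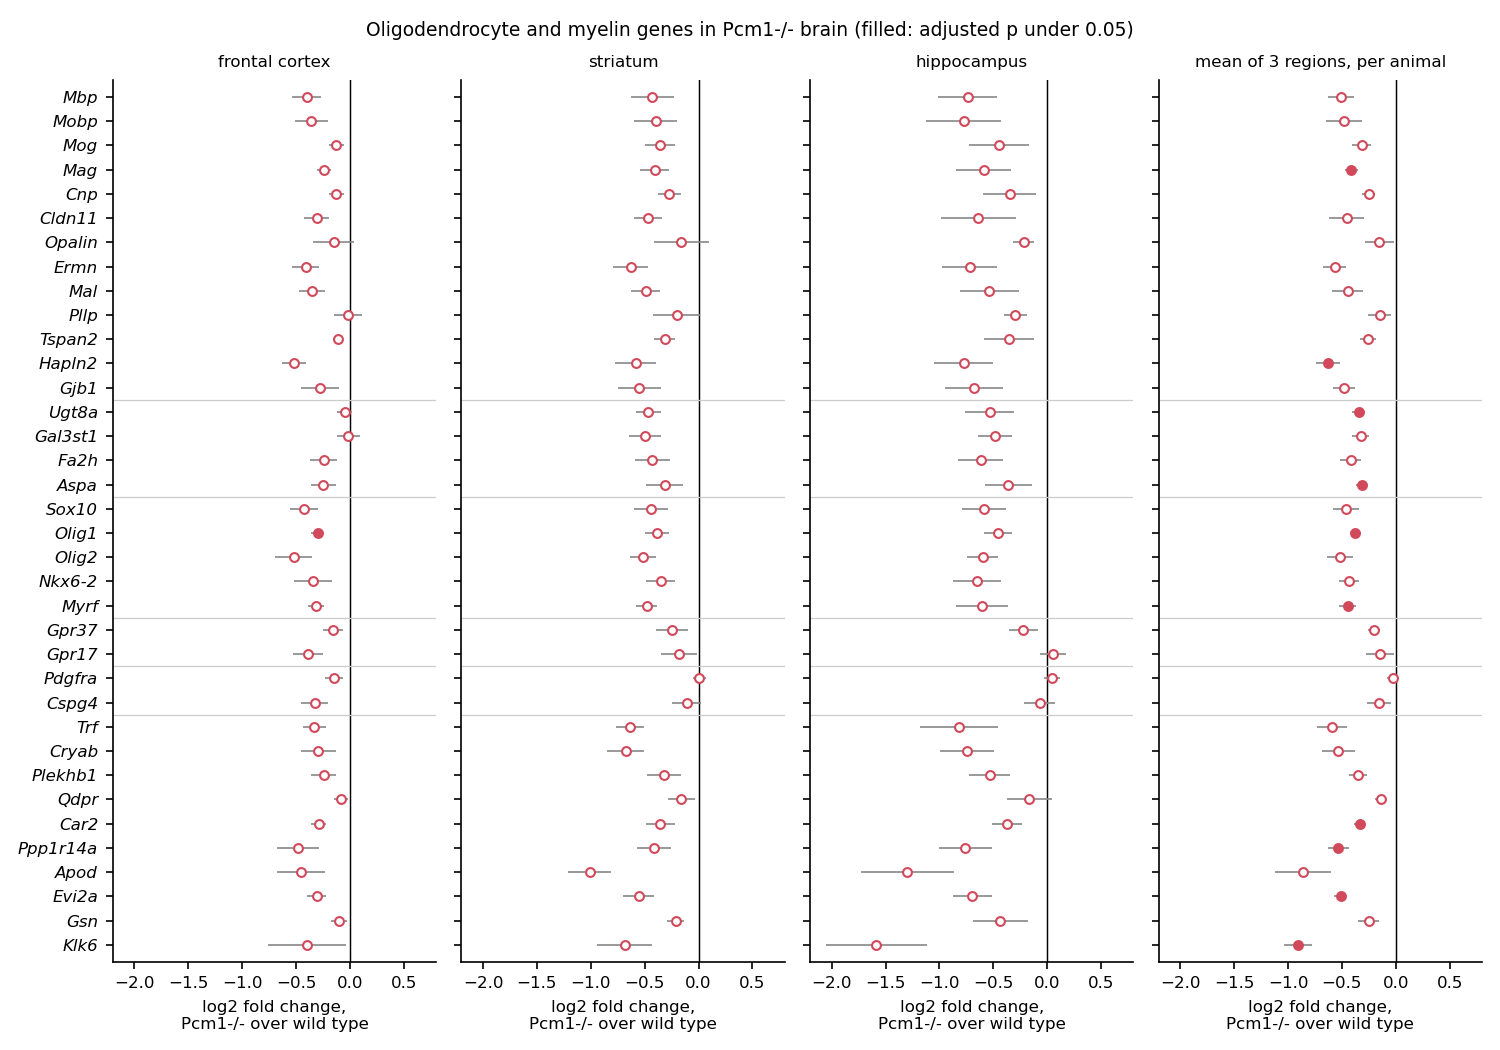
Log2 fold change of Pcm1-/- over WT (horizontal axis) for each of the 36 members (vertical axis, grouped by role) in the 3 regions and, at the right, per animal, with SE as bars and filled points at adjusted p under 0.05. Points lie left of 0 for 36, 35, 34 and 36 members, and 1, 0, 0 and 10 of them are filled.

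Of the 13 genes of myelin structure, all 13 were lower in the mutants in each region, with medians of −0.28 (frontal cortex), −0.41 (striatum) and −0.59 (hippocampus). None passed within a region by the quasi-likelihood test. DESeq2 called Ermn, Hapln2 and Mbp in the frontal cortex and Cldn11, Ermn, Hapln2 and Mal in the striatum. The exact test called Hapln2 in the frontal cortex and Ermn in the striatum. The shares of all genes for these tools are given above. Mbp in the frontal cortex read 1088, 787 and 718 CPM in WT and 634, 687 and 653 in Pcm1-/- animals. In the striatum it read 3690, 3584 and 3704 in WT against 2063, 3720 and 2344, and in the hippocampus 4129, 1962 and 2951 against 1811, 1487 and 2195. The frontal cortex groups did not overlap, whereas 1 mutant striatum library stood at the WT level and 1 WT hippocampus library among the mutants. The log2 fold changes were −0.40 ± 0.13 (adjusted p = 0.197), −0.43 ± 0.20 (adjusted p = 0.392) and −0.74 ± 0.27 (adjusted p = 0.455).

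Mag, the adhesion glycoprotein that holds the innermost myelin layer to the axon, read 78.2, 81.8 and 70.0 CPM in the WT frontal cortex and 65.8, 66.2 and 63.3 in the mutant one. In the striatum its WT libraries read 314, 283 and 321 against 184, 277 and 228 in mutants. Both pairs of groups were apart, though replicate 2 of the mutant striatum came close to the lowest WT library. In the hippocampus Mag read 262, 166 and 274 in WT and 173, 107 and 191 in mutants, and the groups overlapped through the low WT replicate.

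Hapln2, a link protein of the matrix at nodes of Ranvier, had the most negative value of the structural genes in the frontal cortex. It read 12.6, 10.8 and 11.2 CPM in WT and 7.43, 9.08 and 7.76 in mutants there, a log2 fold change of −0.52 ± 0.11 that just missed the threshold (adjusted p = 0.0551). In the striatum its values were 44.2, 47.9 and 42.6 against 21.6, 39.9 and 27.9 CPM. The groups were apart in both regions. Ermn, a cytoskeletal protein of late myelination, gave −0.41 ± 0.12, −0.63 ± 0.16 and −0.72 ± 0.26 and had an unadjusted p under 0.05 in each region. At the other end were Pllp and Opalin, a glycoprotein of the myelin sheath, whose values were −0.02 ± 0.13 and −0.15 ± 0.19 in the frontal cortex and −0.20 ± 0.22 and −0.16 ± 0.26 in the striatum. Their replicates were not tight, since Pllp in the WT striatum read 76.8, 61.4 and 115 CPM and Opalin 26.5, 19.8 and 37.9. In the hippocampus, at −0.30 ± 0.11 and −0.22 ± 0.10, they were the structural genes whose groups did not overlap.

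The remaining structural genes had negative values as well. Mobp, Cldn11 (the claudin of myelin tight junctions), Mal (a proteolipid that sorts myelin cargo) and Gjb1 (connexin 32) had values between −0.28 and −0.77 in all regions. Mog, on the outer face of myelin, Cnp, an enzyme of the cytoplasmic channels, and Tspan2, a tetraspanin, gave smaller ones, −0.11 to −0.13 (frontal cortex), −0.27 to −0.36 (striatum) and −0.35 to −0.45 (hippocampus). Cnp overlaps the last part of Dnajc7 on the opposite strand, and the strand setting of the counting is not given in the sources used here. Dnajc7 itself changed by −0.03 ± 0.07 per animal.

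The sequences just before the start of some of these genes are given to show which letters of lineage factors lie there. RefSeq sequence of build GRCm38.p6 was at hand for 26 of the 36 members, and the 250 bases before the start were searched on both strands for ACAAAG and ACAATG (core letters bound by SOX proteins), CAGCTG and CAGATG (E-boxes of the kind bound by OLIG proteins) and CTGGCAC and CTGGTAC (bound by MYRF). The first bases after the start lay in a transcript of the gene for 21 of the 26, but not for Pdgfra. SOX letters were present in 11 of 26 members (42.3%) and in 25.7% of 27025 genes, the E-boxes in 12 (46.2%) and 25.5%, and the MYRF letters in 4 (15.4%) and 5.81%. Members with MYRF letters were Cnp, Hapln2, Mag and Mog. These shares are a description with no test, and a match is not a binding site. The 5 sequences below were picked after the matches were seen, for Mag, Hapln2 and Klk6, which passed the test per animal described further on, for Mobp, which held the most SOX letters, and for Pdgfra, which did not pass. They run 5′ to 3′ along the gene, and carry the matches in capitals. Those of Mag, Hapln2, Klk6 and Mobp stop where the GENCODE gene begins, and that of Pdgfra stops short of it. They are Mag at chr7:30914874-30915113 (minus strand), Hapln2 at chr3:88027584-88027761 (minus), Klk6 at chr7:43824294-43824498 (plus), Mobp at chr9:120149492-120149706 (plus) and Pdgfra at chr5:75152001-75152250 (plus).
Mag: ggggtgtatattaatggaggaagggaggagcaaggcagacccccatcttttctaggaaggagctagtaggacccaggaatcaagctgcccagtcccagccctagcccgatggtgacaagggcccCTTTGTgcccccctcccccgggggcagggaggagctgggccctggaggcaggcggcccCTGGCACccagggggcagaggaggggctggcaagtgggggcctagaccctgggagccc
Hapln2: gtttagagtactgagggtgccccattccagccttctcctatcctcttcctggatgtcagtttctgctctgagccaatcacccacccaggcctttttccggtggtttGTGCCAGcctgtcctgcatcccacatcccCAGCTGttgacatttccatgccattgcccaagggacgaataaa
Klk6: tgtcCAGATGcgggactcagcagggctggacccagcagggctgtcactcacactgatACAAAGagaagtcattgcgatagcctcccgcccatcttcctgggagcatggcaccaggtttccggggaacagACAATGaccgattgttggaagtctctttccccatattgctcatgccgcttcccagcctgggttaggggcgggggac
Mobp: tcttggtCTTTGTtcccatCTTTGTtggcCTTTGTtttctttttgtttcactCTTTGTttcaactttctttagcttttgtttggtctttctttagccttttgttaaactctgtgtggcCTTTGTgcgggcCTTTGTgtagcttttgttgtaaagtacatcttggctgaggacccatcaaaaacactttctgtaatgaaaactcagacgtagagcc
Pdgfra: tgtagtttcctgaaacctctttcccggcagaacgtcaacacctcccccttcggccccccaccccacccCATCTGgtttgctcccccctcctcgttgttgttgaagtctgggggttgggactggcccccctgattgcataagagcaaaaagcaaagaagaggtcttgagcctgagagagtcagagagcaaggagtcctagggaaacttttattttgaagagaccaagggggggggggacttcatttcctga
Mag held 1 SOX and 1 MYRF match, and Hapln2 1 MYRF and 1 E-box match in the part shown. Klk6 held 2 SOX matches and 1 E-box, Mobp 6 SOX matches, all written CTTTGT on the strand shown, and Pdgfra 1 E-box, written CATCTG.

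Of the 4 lipid enzymes, 0 had an unadjusted p under 0.05 in the frontal cortex (background 7.47%), and 3 had one in the striatum (background 6.98%) and 3 in the hippocampus (background 5.06%). Ugt8a, which makes galactosylceramide, and Gal3st1, which sulfates its product, had log2 fold changes of −0.05 ± 0.07 and −0.01 ± 0.11 in the frontal cortex. Ugt8a read 32.7, 33.5 and 31.6 CPM in WT and 32.0, 33.6 and 29.3 in mutants there. In the striatum the same gene read 109, 118 and 115 against 71.6, 97.8 and 77.0 CPM, so that the groups were apart (−0.46 ± 0.11, unadjusted p = 0.0031, adjusted p = 0.18). Gal3st1 read 12.5, 14.7 and 14.8 CPM in the WT striatum and 8.46, 12.2 and 9.01 in the mutant one (−0.50 ± 0.15), and its groups were apart in the hippocampus as well (−0.48 ± 0.16). Of all members, Gal3st1 had the smallest p in the interaction test of genotype and region, 0.0597, with an adjusted p of 0.936. Fa2h, the fatty acid 2-hydroxylase of myelin lipids, and Aspa, which frees acetate from N-acetylaspartate, gave −0.24 ± 0.12 and −0.25 ± 0.11 in the frontal cortex and −0.62 ± 0.21 and −0.36 ± 0.22 in the hippocampus.

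All 5 transcription factors had negative values in every region. An unadjusted p under 0.05 was reached by 4 of the 5 for the frontal cortex (background 7.47%) and by all 5 for striatum (background 6.98%) and hippocampus (background 5.06%). Olig1 (chr16:91269772-91271933 in GRCm38) read 85.3, 80.2 and 76.0 CPM in the WT frontal cortex and 68.4, 65.6 and 63.2 in the mutant one, a log2 fold change of −0.30 ± 0.06 (adjusted p = 0.0473), or 81.2% of the WT level. In the striatum it read 147, 135 and 129 against 90.2, 122 and 101 CPM, and in the hippocampus 128, 108 and 138 against 93.9, 79.5 and 102. Olig1 and Evi2a were the members whose groups were apart in all 3 regions, as were 74 of the 17545 genes tested. The frontal cortex call for Olig1 was lost without WT replicate 1 or 2 or any 1 mutant replicate, in both fits of all 18 libraries, and with the Y-linked covariate. Without those single libraries 0.0171% to 0.0855% of all genes were called lower. The share was 0.12% in the fit of all 18 libraries, 0.057% with lane added to it and 0.382% with the Y-linked covariate. Over 16 alternatives the adjusted p of Olig1 ran from 0.0053 to 0.355. Without WT replicate 3 of the frontal cortex 12 members passed there, with 1.55% of all genes called lower against 0.336% with that library.

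Olig2, the partner that specifies the lineage, read 33.9, 26.4 and 19.2 CPM in the WT frontal cortex and 18.8, 19.4 and 17.5 in mutants, with WT replicate 3 within the mutant range, so that the groups overlapped. Elsewhere it read 35.0, 43.7 and 41.3 against 24.0, 31.6 and 27.9 (striatum) and 49.3, 34.1 and 36.4 against 27.3, 25.2 and 27.6 (hippocampus), and these groups did not overlap. Its log2 fold changes were −0.52 ± 0.17, −0.52 ± 0.12 and −0.60 ± 0.14, with adjusted p-values of 0.196, 0.174 and 0.391. Myrf, the factor that turns on the myelin genes, gave −0.31 ± 0.08, −0.48 ± 0.10 and −0.60 ± 0.24, and its WT and mutant libraries were apart in the frontal cortex and the striatum. Sox10, which acts with it, gave −0.43 ± 0.13, −0.44 ± 0.16 and −0.58 ± 0.21. Nkx6-2, a transcriptional repressor that acts in late oligodendrocyte differentiation and lies within a span of Inpp5a on the opposite strand, gave −0.34 ± 0.17, −0.35 ± 0.14 and −0.65 ± 0.22, while Inpp5a gave 0.03 ± 0.06, 0.0065 ± 0.06 and −0.38 ± 0.13.

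**Figure D3:**
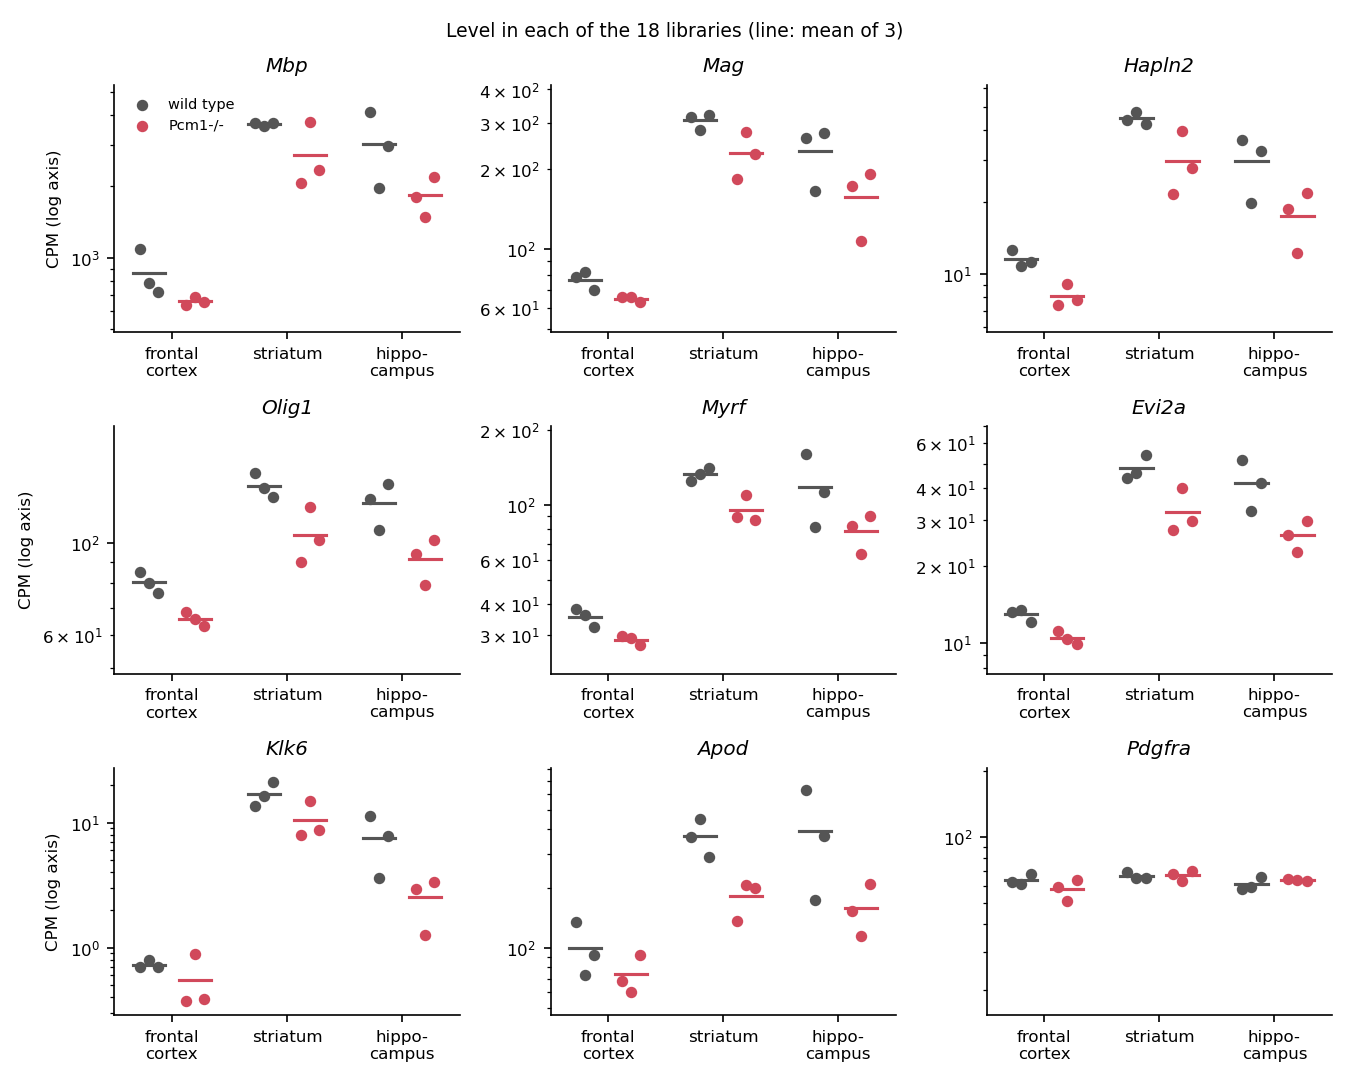
CPM on a log axis (vertical) of 9 members in each of the 18 libraries (points, 3 per group in order of replicate number) by region and genotype (horizontal), with the group mean as a line. The group mean of the mutants lies below that of WT in every region for the first 8 genes, replicate 2 of the Pcm1-/- striatum stands at the WT level for Mbp, and Pdgfra stays between 50.8 and 69.9 CPM.

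The receptors and precursor markers gave smaller values in striatum and hippocampus. Gpr37, a receptor of mature oligodendrocytes, gave −0.16 ± 0.10, −0.25 ± 0.15 and −0.22 ± 0.14. Gpr17 read 47.1, 29.7 and 39.2 CPM in the WT frontal cortex and 28.9, 29.7 and 30.4 in mutants (−0.39 ± 0.14, adjusted p = 0.233), and its values for striatum and hippocampus were −0.18 ± 0.17 and 0.05 ± 0.12. Pdgfra in the striatum read 69.5, 65.1 and 65.3 CPM in WT and 67.7, 63.2 and 69.9 in mutants, and in the hippocampus 58.2, 59.2 and 65.6 against 64.7, 63.4 and 63.3. The groups overlapped in all regions, with log2 fold changes of −0.15 ± 0.08, 0.01 ± 0.06 and 0.05 ± 0.08. Cspg4 gave −0.33 ± 0.12 (adjusted p = 0.251) for frontal cortex, −0.11 ± 0.13 for striatum and −0.07 ± 0.14 for hippocampus. Pericytes also express Cspg4, and meningeal cells Pdgfra, so neither counts precursors alone.

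Set against each other within a library, summed CPM of the 13 structural genes was 84.4 to 90.3 times that of Pdgfra and Cspg4 in the WT striatum and 49.1, 91.0 and 58.7 times in the mutant striatum. In the hippocampus the ratio was 103, 52.9 and 76.6 in WT and 47.7, 37.8 and 59.2 in mutants. In the frontal cortex it was 26.1, 21.4 and 17.5 in WT, and all 3 mutant libraries lay within that range. The groups overlapped in each region.

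The 10 other oligodendrocyte-rich genes were all lower in the mutants in each region, with medians of −0.30, −0.49 and −0.72. The widest differences of the whole list in the striatum and the hippocampus were here. Apod, an apolipoprotein of oligodendrocytes, read 366, 450 and 288 CPM in the WT striatum and 137, 209 and 201 in the mutant one (−1.01 ± 0.20, unadjusted p = 0.00091, adjusted p = 0.128). In the hippocampus it read 628, 174 and 366 against 155, 115 and 211 CPM (−1.30 ± 0.43), with the low WT replicate inside the mutant range. Fibroblasts of the meninges also express Apod. Their 7 markers summed to 455, 258 and 193 CPM in the WT hippocampus and 151, 97.7 and 225 in the mutant one, and to 53.2, 60.7 and 345 against 42.8, 50.4 and 45.2 in the striatum; their part in the Apod values was not tested.

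Klk6 read 11.3, 3.63 and 7.83 CPM in the WT hippocampus and 2.96, 1.26 and 3.38 in the mutant one, so the groups were just apart (−1.58 ± 0.47, adjusted p = 0.405). In the striatum it read 13.5, 16.3 and 21.2 against 7.96, 14.9 and 8.72, with replicate 2 of the mutants within the WT range. Evi2a, a membrane protein gene inside an intron of Nf1 on the opposite strand (chr11:79526560-79530609), read 43.7, 46.0 and 53.9 CPM in the WT striatum against 27.4, 40.1 and 29.8, and 51.5, 32.7 and 42.1 in the WT hippocampus against 26.4, 22.6 and 30.0. Its groups were apart in all 3 regions, with log2 fold changes of −0.31 ± 0.09, −0.56 ± 0.15 and −0.69 ± 0.18. Nf1 gave −0.01 ± 0.11, −0.11 ± 0.14 and −0.12 ± 0.10.

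Trf, the iron carrier transferrin, read 105, 102 and 93.4 CPM in the WT striatum and 51.3, 75.6 and 66.4 in the mutant one (−0.63 ± 0.13, adjusted p = 0.138). The choroid plexus also makes transferrin, and 6 markers of that tissue summed to 5986 CPM in replicate 3 of the WT striatum against 31.0 to 167 in the other striatum libraries. In the hippocampus Trf gave −0.82 ± 0.36, and the same markers summed to 6284, 2357 and 2155 CPM in WT against 2361, 222 and 4156 in mutants. The part of choroid plexus in the Trf values was not tested. Cryab, a small heat shock protein, gave −0.29 ± 0.16, −0.67 ± 0.17 and −0.75 ± 0.25. Car2 gave −0.29 ± 0.07, −0.35 ± 0.13 and −0.37 ± 0.14, Ppp1r14a, an inhibitor of myosin phosphatase, −0.48 ± 0.20, −0.41 ± 0.16 and −0.76 ± 0.24, and Plekhb1, a membrane-bound adaptor, −0.24 ± 0.12, −0.32 ± 0.16 and −0.53 ± 0.19. Gsn, the actin-severing gelsolin, gave −0.10 ± 0.07, −0.21 ± 0.07 and −0.43 ± 0.25, and Qdpr gave −0.08 ± 0.07, −0.16 ± 0.13 and −0.17 ± 0.21. Ermn, Hapln2, Sox10, Olig1, Olig2, Myrf, Car2, Ppp1r14a and Evi2a, 9 members in all, were lower in the mutants with an unadjusted p under 0.05 in all 3 regions, as were 111 of all 17545 genes tested (0.633%).

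With the 3 regions of each animal averaged (log2 CPM, 3 animals per genotype, limma with a mean-variance trend), 36 of 36 members were lower in Pcm1-/- animals and 10 passed at an adjusted p under 0.05 (background 0.45% of all genes called lower). The median was −0.42, beside 0.0023 for all genes. At an unadjusted p under 0.05 there were 31 (background 7.94%), and for 25 members the 3 mutant animals lay below the 3 WT animals (background 9.63%). Evi2a fell by 0.51 on the log2 scale (SE 0.06, adjusted p = 0.0178), with animal means of 4.82, 4.98 and 4.85 in WT and 4.33, 4.40 and 4.38 in mutants. Olig1 fell by 0.38 (SE 0.05, adjusted p = 0.0253), with means of 6.85, 6.83 and 6.70 against 6.38, 6.43 and 6.44. The mutant animals lay below every WT animal for both genes.

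Mag fell by 0.41 (SE 0.06, adjusted p = 0.029), Car2 by 0.34 (SE 0.05), Ugt8a by 0.35 (SE 0.06), Aspa by 0.31 (SE 0.06) and Myrf by 0.45 (SE 0.08). Hapln2, Ppp1r14a and Klk6 fell by 0.63 (SE 0.11), 0.53 (SE 0.10) and 0.90 (SE 0.13). The named set moved with the method: edgeR on the summed counts of each animal also called 10 (background 0.393%), with Ermn, Gjb1 and Nkx6-2 in place of Aspa, Hapln2 and Klk6. With the Y-linked covariate 11 passed (background 0.673%), with Cnp and Trf added and Ppp1r14a lost. Mbp gave −0.51 ± 0.12 (adjusted p = 0.0928) and Apod −0.86 ± 0.26 (adjusted p = 0.153), with wide errors. The 5 members with an unadjusted p above 0.05 were Pllp (−0.15 ± 0.10), Opalin (−0.15 ± 0.13), Gpr17 (−0.14 ± 0.13), Cspg4 (−0.16 ± 0.11) and Pdgfra (−0.02 ± 0.06).

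The count of 10 moved with single animals, and so did the share of all genes called lower. It was 0 without mutant animal 1 (background 0.0114%), mutant animal 2 (background 0.0171%) or WT animal 2 (background 0.0114%), with WT animals named by their striatum replicate number. It was 1 without mutant animal 3 (background 0.171%), 5 without WT animal 3 (background 0.103%) and 15 without WT animal 1 (background 0.952%). It was also 0 without the striatum (background 0.0285%), the region in which lane follows genotype, with a median of −0.41. The median stayed between −0.45 and −0.31 when any 1 animal was left out.

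The genotype effect itself was not shown to differ between regions. The interaction of genotype and region in a fit of all 18 libraries called 0 of 36 members (background 0.0114% of all genes), and 0 members had an unadjusted p under 0.05. A difference that misses this test is not shown to be absent, and the medians of −0.30, −0.41 and −0.56 stand as separate values from the same animals.

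Other genes of the lineage were counted from lists outside the 36. Of 36 further genes of mature oligodendrocytes, 26, 36 and 34 had negative values in frontal cortex, striatum and hippocampus respectively, with medians of −0.12, −0.33 and −0.48. In the frontal cortex 2 passed, Ndrg1 (−0.35 ± 0.06, adjusted p = 0.0216) and Tmem63a, an ion channel (−0.43 ± 0.08, adjusted p = 0.0406), and none passed in the other regions by the same test, in which 19 and 16 were lower at an unadjusted p under 0.05. Over all genes, 0.336% were called lower in the frontal cortex, and 6.98% and 5.06% were lower at that unadjusted p in striatum and hippocampus. Per animal 36 of 36 were lower and 8 passed (background 0.45%), with Ndrg1 (−0.47 ± 0.05), Tmem63a (−0.50 ± 0.07), Anln (−0.68 ± 0.10), Gltp, a glycolipid transfer protein (−0.41 ± 0.06), and Adamts4, a protease (−0.47 ± 0.08), the 5 with the smallest p. Of 22 further genes of precursors and newly formed oligodendrocytes, 16, 17 and 19 had negative values, with medians of −0.13, −0.13 and −0.14. Per animal 1 of them passed, Tcf7l2 (−1.22 ± 0.23, adjusted p = 0.0458), a factor of newly formed oligodendrocytes that some neurons also express. The neuronal gene Slc17a6, a glutamate transporter of thalamic neurons, gave −1.15 ± 0.20 in the same fit (adjusted p = 0.0413).

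Markers of other cells were read in the same libraries. Among 10 neuronal markers the medians were 0.15, 0.01 and 0.02, and in the frontal cortex Slc17a7 and Syt1 passed as higher in the mutants (0.26 ± 0.05 and 0.29 ± 0.06). Among region markers, Drd1, a dopamine receptor, was higher in the mutant frontal cortex (0.68 ± 0.10) and per animal (0.66 ± 0.07), and Prox1, of dentate granule cells, was lower per animal (−0.35 ± 0.06). Astrocyte markers gave medians of −0.02, −0.13 and −0.24, with none of 9 called. Microglial markers were lower in 8 of 8 genes in each region (medians −0.30, −0.39 and −0.22) with none called, and endothelial and mural markers in 8, 7 and 8 of 9 (medians −0.32, −0.18 and −0.41), with Acta2 called in the frontal cortex (−1.16 ± 0.17). The 7 markers of meningeal fibroblasts had medians of −0.48, −0.41 and −0.57, those of choroid plexus −0.33, −3.38 and −0.58, and those of ependyma 0.30, 0.35 and 0.03.

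Of the red blood cell genes, 5 of 5 had an unadjusted p under 0.05 for lower values in each region (backgrounds of 7.47%, 6.98% and 5.06%) and none was called, with medians of −1.22, −1.02 and −1.54. They summed to 109 to 175 CPM in the WT frontal cortex and 35.8 to 79.0 in the mutant one, to 71.8 to 227 and 43.9 to 92.2 in the striatum, and to 125 to 216 and 33.3 to 69.8 in the hippocampus. The 3 Schwann cell markers tested gave medians of −0.04, 0.01 and −0.33. In the hippocampus the neuronal sum was highest where the members were lowest, 8596 CPM in WT replicate 2 against 7165 and 6881, and 9756 in mutant replicate 2 against 8043 and 7643. The part of these other cells in the member values was not tested.

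**Figure D4:**
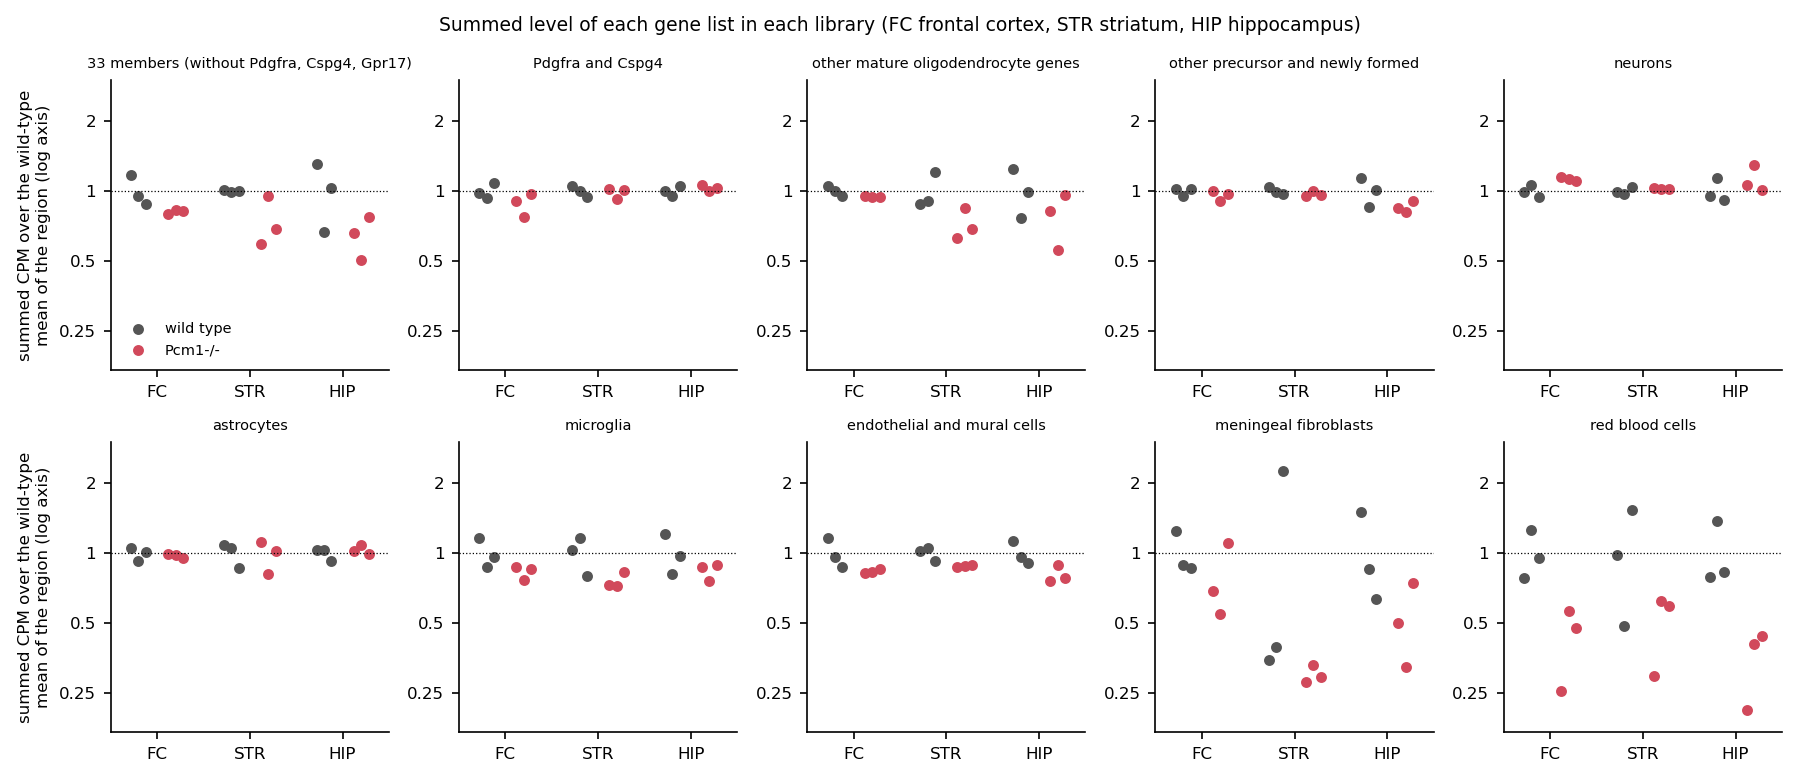
Summed CPM of each gene list divided by the WT mean of the same region, on a log axis (vertical), for the 18 libraries by region (horizontal) and genotype (colour). The 33 members without Pdgfra, Cspg4 and Gpr17 lie below 1 in all 9 mutant libraries. Pdgfra and Cspg4 lie below 1 in the mutant frontal cortex and near 1 elsewhere. The lists of other mature oligodendrocyte genes, microglia, endothelial and mural cells, and red blood cells also lie below 1 in all 9 mutant libraries.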

How the data were processed

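Polyadenylated RNA from 18 tissue samples was made into libraries with a stranded kit and sequenced. Per the labels and the study's methods, the authors trimmed reads with Trim Galore and cutadapt, kept reads of at least 20 bases, mapped them with STAR to GrCm38r73, kept reads with a single location, and deposited HTSeq counts per gene. Tool versions and the strand setting of the counting are not given in the sources used here. The deposited counts were whole numbers per gene, and rows that name no gene were left out. Between 86.8% and 89.2% of counted reads were assigned to genes.

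Genes with at least 10 counts in any library were kept. Each region was tested with edgeR 4.0.16 (R 4.3.3; trimmed-mean factors, quasi-likelihood test, Benjamini-Hochberg adjustment over all genes, threshold 0.05). Region contrasts and the interaction came from 1 fit of all libraries. Per animal, limma 3.58.1 was applied to the mean log2 CPM over 3 regions (prior count 2). DESeq2 1.42.0 and edgeR's exact test were alternatives. Fits were tested on simulated data. CPM per kb used exon lengths of GENCODE vM21. Python 3.11.15, pandas 2.3.3, numpy 2.4.6 and matplotlib 3.10.9 were used for tables and plots.

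Groups came from the labels, and animals from names recorded with the files. Samples of the same animal correlated between regions (r of deviations from group means 0.0801 to 0.386), so region contrasts were also fitted with the animal as a block. Samples are separate animals within a group, and precision is limited by 3 per group.

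All 36 members are named. Of the other lists, genes at adjusted p under 0.05 are named, up to 5 per list and comparison in order of p. The members and lists were chosen with earlier results of these data known. Of 23 further precursor and newly formed oligodendrocyte genes, 22 were matched, and 3 of 4 Schwann cell genes passed the filter. Promoter sequences are from RefSeq (GRCm38.p6).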

Additional observations from a re-analysis of the deposited data

How the results depend on the processing

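No member changed direction while called. In the frontal cortex 1 member was called, against 8 with DESeq2, 4 with the exact test, 2 with no filter, 0 with all 18 libraries in 1 fit, 0 with lane added to that fit, and 0 with the Y-linked covariate (chosen after seeing the data). The striatum had 0 called, against 12 with DESeq2, 8 with the exact test, 1 with no filter and 13 with the Y-linked covariate. The hippocampus had 0, against 3 with DESeq2 and 1 with all 18 libraries in 1 fit. The share of all genes called lower moved with these settings too. In the frontal cortex it was 0.336%, against 0.493% with no filter, 0.12% with all 18 libraries in 1 fit, 0.057% with lane added and 0.382% with the Y-linked covariate. In the striatum it was 0.0057%, against 0.0853% with no filter. In the hippocampus it was 0.0057%, against 0.502% with all 18 libraries in 1 fit. Replicate numbers were not taken to pair the genotypes, since no label states that WT and mutant animals are paired. Some WT and mutant animal names begin with the same number, whose meaning the sources used here do not give. Not every correlation of the same replicate number passed 0.1. They ran from 0.0428 to 0.2603 in the frontal cortex and from 0.0955 to 0.5065 in the hippocampus. In the striatum, where WT animals are numbered in another order, they ran from −0.2687 to 0.1776. Every library correlated best with its own number in the frontal cortex, but not in the other regions. A replicate block gave 6 called in the frontal cortex, with 1.35% of all genes called lower against 0.336% without it, and 0 in each other region. Per animal, 10 members were called, and 0 without the striatum, an alternative chosen after seeing the data. From summed counts 10 were called, without Aspa, Hapln2 and Klk6, and with the Y-linked covariate 11, without Ppp1r14a. For the WT striatum over frontal cortex the median was 1.80, and 1.69 with lane as a covariate. For the WT striatum over hippocampus 2 members were called, against 0 with lane, 4 with no filter and 4 with the animal as a replicate block, while 3105 of all 17545 genes were called higher, against 2777 with lane, 2962 of 26966 with no filter and 3608 with that block. That block changed no member's call beyond those given in the report.

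Leaving out 1 library, the called members ranged from 0 to 12 in the frontal cortex and were 0 throughout in striatum and hippocampus. The share of all genes called lower then ran from 0.0171% to 1.55% in the frontal cortex. It ran from 0.0057% to 0.0171% in the striatum and from 0.0057% to 0.0456% in the hippocampus. Leaving out 1 animal, the called members ranged from 0 to 15 per animal, beside 0.0114% to 0.952% of all genes. The member medians then ran from −0.45 to −0.31. For striatum over frontal cortex the medians ranged from 1.66 to 1.83 in WT and from 1.38 to 1.72 in mutants. For striatum over hippocampus the counts ranged from 0 to 7 in WT and from 1 to 11 in mutants. Depth limits Klk6 in the frontal cortex, where no library had over 29 counts. The cause of these differences between settings was not tested.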
